A study of Mus musculus with 208 samples.

Results

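The 7 hormone genes Gh, Prl, Pomc, Oxt, Avp, Hcrt and Pmch of the pituitary and the hypothalamus were followed through the striatal libraries of Huntington disease knock-in mice (144 libraries) and wild-type mice (64). They were chosen by symbol, 7 of the 39179 gene IDs in the count table, because earlier results of these data had shown hormone genes with very high counts in single libraries. Their counts across groups are therefore given as a description, and no test on them stands as support. All 7 symbols were found. Gh, Prl and Pomc are pituitary genes, and Oxt, Avp, Hcrt and Pmch are genes of the hypothalamus.

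The anterior pituitary hangs below the hypothalamus and secretes hormones into the blood. Its somatotrophs make growth hormone (Gh), its lactotrophs prolactin (Prl), and its corticotrophs, together with cells of the intermediate lobe, cleave the Pomc precursor into corticotropin and melanocortins; arcuate neurons of the hypothalamus also use Pomc. Large neurons of the hypothalamus send oxytocin (Oxt) and vasopressin (Avp) to the posterior pituitary, and separate neurons of the lateral hypothalamus make orexin (Hcrt) and melanin-concentrating hormone (Pmch). The striatum, the region sequenced here, holds mainly medium spiny projection neurons and receives such peptides through axons and receptors.

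The mice were C57BL/6, either wild type or heterozygous for 1 of the knock-in lines Q20, Q80, Q92, Q111, Q140 and Q175, which are named after the CAG repeat length of the altered huntingtin allele. There were 26 groups of 8 libraries: wild types and the 6 lines at 2 months (56 libraries), at 6 months (96) and at 10 months (56). At 6 months each line had a wild-type group that was housed with it, whereas Q20 cages supplied the wild types of 2 and 10 months. Each group held 4 libraries of either sex, apart from Q80 of 2 months (3 female, 5 male) and Q20 of 10 months (5 female, 3 male). Libraries are named by line, sex and replicate, so that Q20 F4 is the female replicate 4 of Q20. The submitted name of Q80 M3 at 2 months carries the code shared by the Q80 females of that age. That of Q20 F5 at 10 months carries the code of the Q20 males of that age. Sex was taken from the labels throughout, and at 6 and 10 months it was not checked against Y-linked genes.

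Polyadenylated RNA was sequenced, and total counts per library ran from 29120490 to 49550126. The summed level of 8 medium spiny neuron markers was 2890 to 8220 CPM (counts scaled by the raw library total) across the libraries, so the defining markers of the labelled tissue were present in each. At 2 months 5 libraries had a median correlation under 0.97 with the others of their age (Q92 M3, Q92 M4, Q80 M5, Q20 M2 and Q20 M3), and Q80 M3, labelled male, had 0 counts of 4 Y-linked genes. Gh and Prl were at no more than 8 counts in these 6 libraries.

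The hormone genes were low in most libraries, and their levels differed in kind. Per length, in FPKM (fragments scaled by the authors for gene length and depth), the median over all libraries was 1.45 for Avp, 0.976 for Pomc, 0.528 for Pmch, 0.495 for Oxt, 0.0556 for Hcrt and 0 for Gh and Prl. The middle 50% of libraries ran from 0.96 to 2.13 FPKM for Avp and from 0.826 to 1.19 FPKM for Pomc, so these neighbours in the order overlapped. Pmch (0.271 to 1.49 FPKM) and Oxt (0.305 to 0.816 FPKM) overlapped as well. Pomc and Avp had a count in every library, whereas Gh had 0 counts in 146 libraries and Prl in 116.

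**Figure D1:**
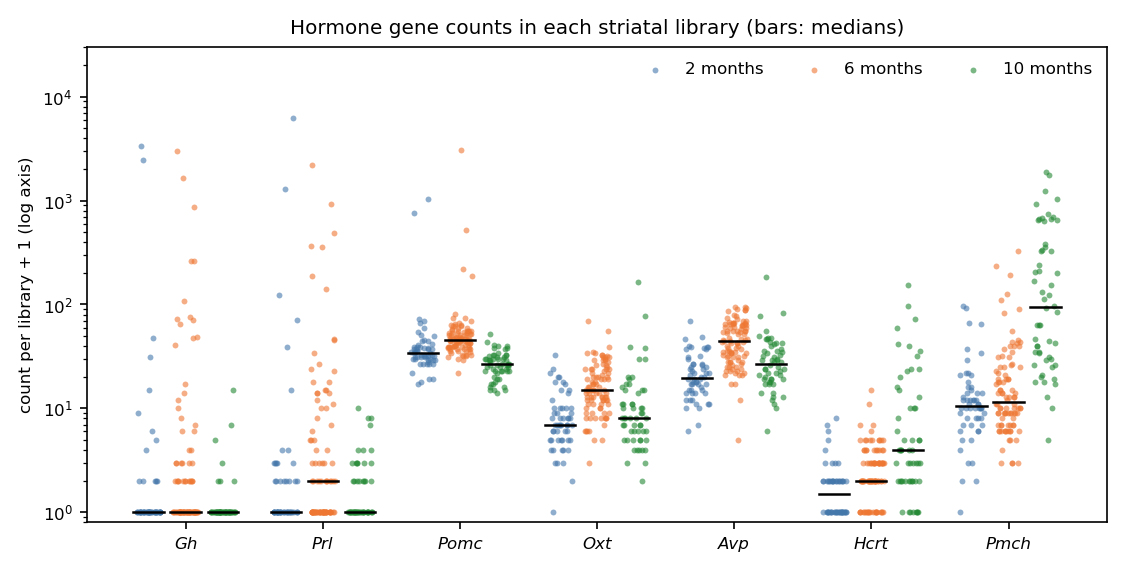
Counts of the 7 genes in each library (count + 1, log axis), with 1 point per library, coloured by age, and a bar at the median of each age. Gh and Prl are at or near 0 in most libraries and highest at 6182 (Prl) and 3364 (Gh) at 2 months, Pomc forms a narrow band with single libraries above it, and Pmch is spread up to 1865 counts at 10 months.

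A gene was called high in a library when it had at least 100 counts and at least 10 times the median CPM of that age, or 10 times the CPM of 3 counts where the median count was under 3. There were 32 such pairs of a gene and a library, in 19 libraries. Of these, 10 libraries were high for Gh, Prl or Pomc and 9 for Oxt, Hcrt or Pmch. High for both kinds were 0 libraries. So few were high that this 0 does not show that the kinds exclude each other. No library of 10 months was high for Gh, Prl or Pomc. Among libraries of 6 months high for Pmch, Prl had 45 counts in the wild type F4 housed with Q175 and 17 in Q111 F3. It had 1 count in Q140 M2 and 0 in the wild type M4 housed with Q140. The pairs just inside were Pmch in Q111 F3 at 6 months (124 counts, 10.0 times the median) and Pomc in Q20 M4 at 6 months (12 CPM, 11 times). Just outside were Pmch in Q175 M2 at 10 months (925 counts, 9.63 times) and Hcrt in Q20 M3 at 10 months (95 counts).

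Growth hormone was found in few libraries. At 2 months Gh had a median of 0 counts, with 3364 counts in wild type M1, 2449 in Q20 F4, 47 in wild type F3 and 30 in Q20 F3. These first 3 libraries held 98.8% of all Gh counts of that age. At 6 months Gh had 2971 counts in Q20 M4, 1654 in the wild type M4 housed with Q92, 861 in the wild type F2 housed with Q140, 260 in Q111 F1, 259 in Q92 F4 and 107 in the wild type F4 housed with Q80. Its median there was again 0 counts. At 10 months the highest Gh count was 14, in Q140 M4, and 49 of 56 libraries were at 0.

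Prolactin followed growth hormone from library to library. Prl had 6182 counts in Q20 F4 and 1295 in wild type M1 at 2 months, and 122 in wild type F3. Set against 3 counts, the level in Q20 F4 was at least 2061-fold higher than the median library of that age, which had 0. At 6 months Prl had 2179 counts in the wild type F2 housed with Q140, 929 in Q111 F1, 482 in Q20 M4, 367 in the wild type M4 housed with Q92, 360 in Q92 F4, 185 in the wild type F4 housed with Q80 and 140 in the wild type F1 housed with Q175. At 10 months the highest count was 9. The high libraries belonged to wild types and to Q20, Q92 and Q111, and in each group of 8 they were 1 or 2 libraries.

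Pomc, unlike these, was present in all libraries at a steady low level. It had 16 to 1032 counts at 2 months with a median of 33, 21 to 3061 at 6 months with a median of 45, and 13 to 51 at 10 months with a median of 25.5. The high libraries were the wild type M4 housed with Q92 (3061 counts, 88.9 CPM) and Q20 M4 (12 CPM) at 6 months, and wild type M1 (1032 counts, 34.2 CPM) and Q20 F4 (756 counts, 25.2 CPM) at 2 months. All 4 were also high for Gh and Prl. Their Pomc differed from their Gh in proportion: Q20 M4 had 12 CPM of Pomc and 68.4 CPM of Gh, whereas the wild type M4 housed with Q92 had 88.9 and 48.0 CPM.

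**Figure D2:**
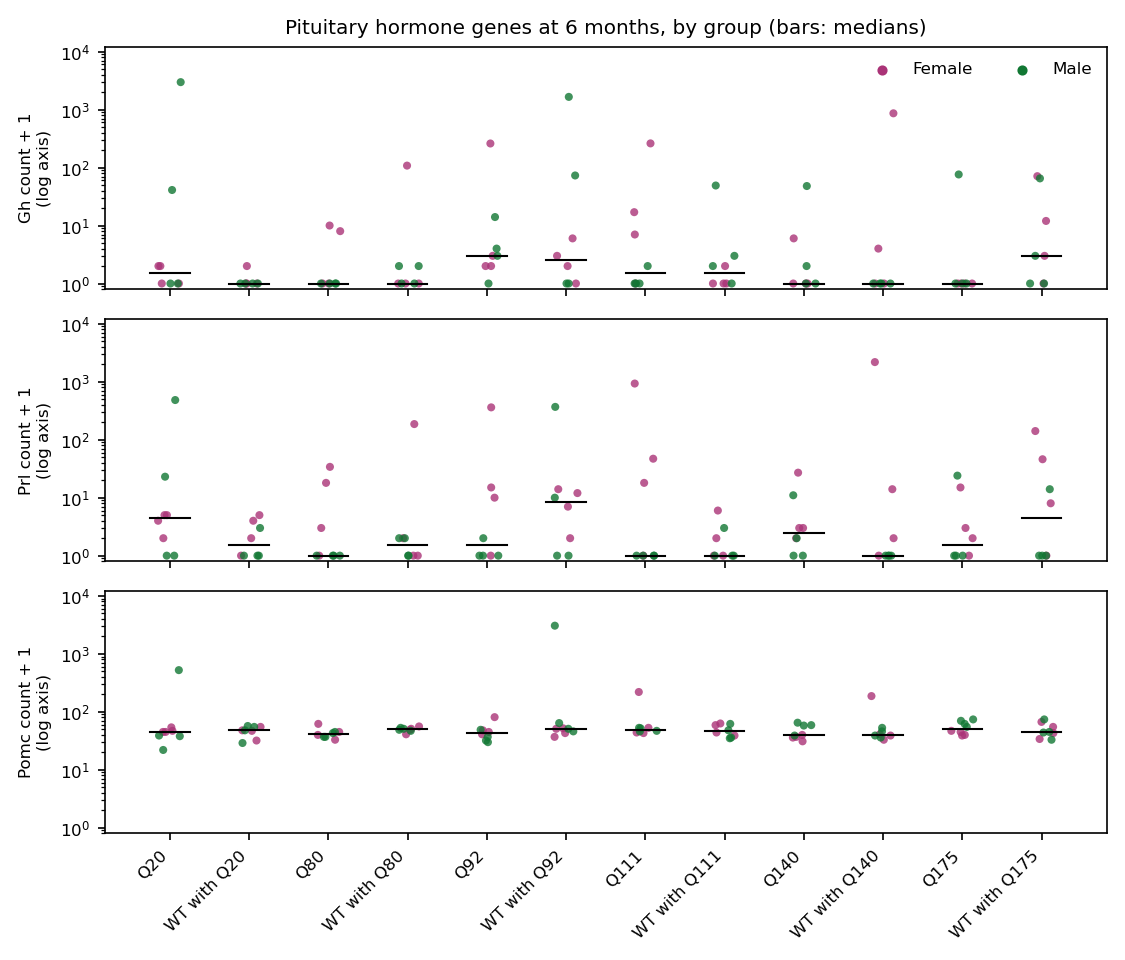
Counts of Gh, Prl and Pomc (count + 1, log axis) in the 8 libraries of each of 12 groups at 6 months, each line to the left of the wild types housed with it, coloured by sex, with a bar at the group median. Single libraries stand far above their group: 2971 counts of Gh in Q20 M4, 2179 of Prl in the wild type F2 housed with Q140 and 3061 of Pomc in the wild type M4 housed with Q92.

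Other pituitary genes were read in the same libraries, from a panel of 11 genes with a row in the table. Cga, the alpha subunit shared by the glycoprotein hormones, had 105 counts in Q20 F4 and 95 in wild type M1 at 2 months, and 68 in the wild type M4 housed with Q92 and 64 in Q20 M4 at 6 months. In libraries with no high hormone gene its highest count was 8 at 2 months and 5 at 6 months. These are the same 4 libraries in which Pomc was high. Fshb, the beta subunit of follicle-stimulating hormone, reached 26 counts in the wild type M4 housed with Q92 and was at 0 in 182 libraries. The pituitary factors Pou1f1, Pitx1 and Tbx19 did not exceed 22 counts in any library, and Ghrhr and Gnrhr did not exceed 4. The summed panel level was 0.35, 0.401 and 0.551 CPM in the median library at 2, 6 and 10 months, with 5.34 CPM in Q20 F4 and 4.18 CPM in the wild type M4 housed with Q92. Whether pituitary tissue entered these samples was not tested.

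Over all libraries, with log2 CPM taken as the difference from the median of each age, Gh correlated with Prl at a Pearson r of 0.86, Gh with Pomc at 0.71 and Prl with Pomc at 0.62. These values describe points that share library and depth, and they rest on few libraries: the Spearman rho of Gh with Pomc was 0.27. Among 13320 genes with at least 100 counts in some library, those most like Gh were Prl, Cga (r = 0.76), Pomc, Hsd3b7 (0.23) and Mterf1a (0.17). For Prl they were Gh, Cga (0.71), Pomc, Xist (0.33) and Eif2s3x (0.31), and for Pomc they were Gh, Cga (0.66), Prl, Bend5 (0.33) and Map2k2 (0.29). After the hormone genes and Cga the likeness dropped to 0.33 or less. The r of these 3 genes with Oxt, Avp, Hcrt and Pmch lay between -0.11 and 0.14.

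The balance of prolactin and growth hormone differed between the sexes, a pattern that was noticed after the values were seen. Prl was above Gh in 15 of 15 female libraries with at least 20 counts of both together, and in 0 of 9 such male libraries. Prl made up 58.2 to 83.9% of the sum in the females (median 72.2%), against 4.0 to 35.5% in the males (median 17.5%), and the ranges did not overlap. In the deepest cases Prl was 71.6% of 8631 counts in Q20 F4 (95% Wilson interval 70.7 to 72.6%) and 71.7% of 3040 counts in the wild type F2 housed with Q140 (70.0 to 73.3%), against 27.8% of 4659 counts in wild type M1 at 2 months (26.5 to 29.1%) and 14% of 3453 counts in Q20 M4 (12.8 to 15.2%). The intervals cover counting error only. With at least 100 counts the numbers were 8 of 8 female and 0 of 3 male libraries. Libraries below 20 counts were left out of this count, and among them single libraries of either sex lay on the other side.

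**Figure D3:**
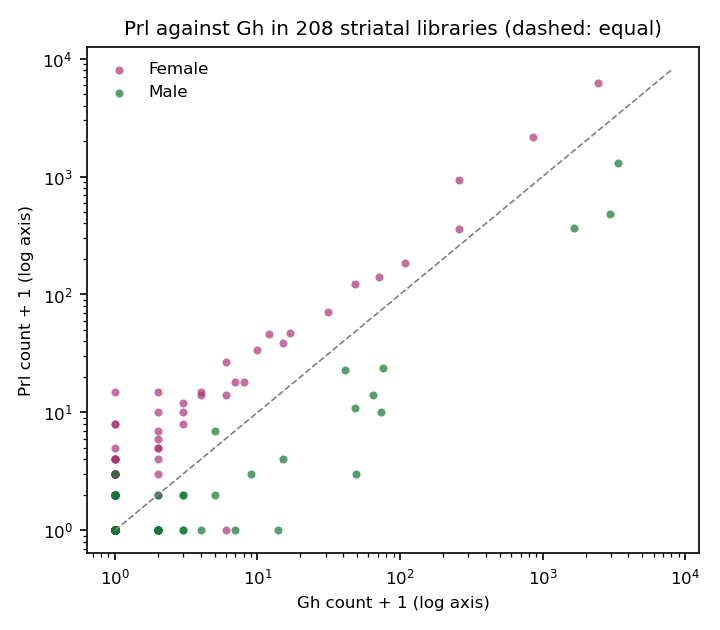
Prl count against Gh count (count + 1, both axes log) in each library, coloured by sex, with a dashed line where both are equal. Female libraries with 20 or more counts of both together lie above the line (15 of 15) and male ones below it (9 of 9).

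The start region of Prl is shown because Prl and Gh were the pair most alike across libraries and both are known targets of POU1F1 (Pit-1), the factor that specifies somatotrophs and lactotrophs. The RefSeq promoter table (GRCm38.p6) held 6 of the 7 genes, with no entry for Gh. Which build the authors used is not given in the sources used here. From chr13:27057320-27057569 the 250 bases before the start of Prl were read on the plus strand, with matches to TATNCAT on either strand, the core letters of POU1F1 sites, in capitals.

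Prl: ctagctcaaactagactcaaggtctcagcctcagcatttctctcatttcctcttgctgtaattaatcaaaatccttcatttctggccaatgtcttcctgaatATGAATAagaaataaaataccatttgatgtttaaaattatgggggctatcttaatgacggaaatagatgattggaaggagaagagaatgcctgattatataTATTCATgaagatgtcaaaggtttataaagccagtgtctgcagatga

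The 2 matches begin 148 and 47 bases before the start. At least 1 match was present in 7.92% of 32851 promoters of the same length, and in 0 of the 5 other hormone gene promoters (Pomc, Oxt, Avp, Hcrt and Pmch). A match is a description of letters and not of binding. Prl lies beside its paralog Prl3d1 in RefSeq's order, and how the authors' counting shared reads among such relatives is not known.

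Oxytocin and vasopressin were low and less uneven. Oxt had 0 to 32 counts at 2 months (median 6), 2 to 69 at 6 months (median 14) and 1 to 162 at 10 months (median 7). Its highest library, Q175 F4 at 10 months, held 162 counts, against 28 of Avp in the same library. Avp had 5 to 69 counts at 2 months (median 18.5), 4 to 93 at 6 months (median 43.5) and 5 to 182 at 10 months (median 26). Its highest library was Q111 M2 at 10 months, which had 38 counts of Oxt. Avp was thus above Oxt in the median library of each age, with wide overlap between libraries.

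Oxt and Avp are immediate neighbours in RefSeq's order, and their levels moved together over all libraries (r = 0.61, Spearman rho 0.63). The next genes in likeness to Oxt were Gpx3 (0.44), Sytl4 (0.42), Cartpt (0.41) and Rwdd2a (0.4), and to Avp they were Phlda3 (0.49), Ptgds (0.45), Metrn (0.43) and Ppm1m (0.41). Cartpt is itself a peptide precursor. The points share library and depth.

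Orexin and melanin-concentrating hormone were highest at 10 months. Hcrt had 0 to 7 counts at 2 months (median 0.5), 0 to 14 at 6 months (median 1) and 0 to 153 at 10 months (median 3). Pmch had 0 to 96 counts at 2 months (median 9.5), 2 to 323 at 6 months (median 10.5) and 4 to 1865 at 10 months (median 93.5). The middle 50% of libraries for Pmch lay between 0.196 and 0.428 CPM at 2 months, between 0.153 and 0.569 CPM at 6 months and between 0.895 and 10.8 CPM at 10 months. The ages overlapped library by library, and no test across ages was made.

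At 10 months the 4 libraries with the most Pmch were also the 4 with the most Hcrt. Q80 M3 had 1865 counts of Pmch and 153 of Hcrt, Q20 M3 had 1772 and 95, Q140 F3 had 1236 and 59, and Q140 F4 had 1032 and 71. Pmch was 12.2 to 20.9 times Hcrt in these libraries. The r of the pair was 0.53 over all libraries and 0.80 over the 56 libraries of 10 months, against 0.21 at 2 months and 0.22 at 6 months, where Hcrt was near 0 in most. The libraries with high Pmch at 6 months had few counts of Hcrt, around that age's median of 1 or a little above: Q140 M2 had 323 and 6 counts, the wild type F4 housed with Q175 had 232 and 1, the wild type M4 housed with Q140 had 191 and 1, and Q111 F3 had 124 and 4.

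**Figure D4:**
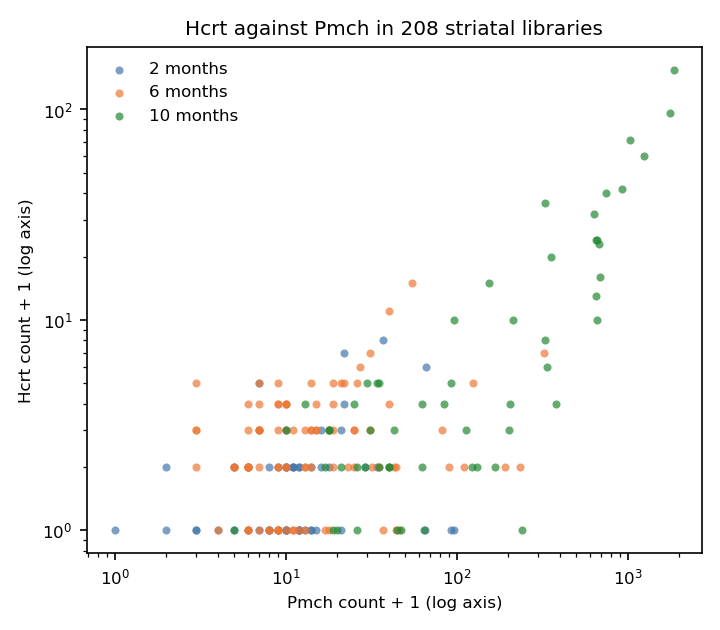
Hcrt count against Pmch count (count + 1, both axes log) in each library, coloured by age. The 4 libraries with the most Pmch (1032 to 1865 counts) are of 10 months and have 59 to 153 counts of Hcrt, and the 4 libraries of 6 months with the most Pmch (124 to 323 counts) have 1 to 6.

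Single genes of a hypothalamus panel did not reach the same excess in these libraries. The panel had 16 genes with a row in the table, among them Trh, Crh, Agrp and Sim1. In the 19 libraries 0 of them reached 20 counts and 10 times the median of the age. This is hard to reach for genes with counts in most libraries, such as Trh (median 196), Hdc (69) and Crh (37.5). Outside the 19 libraries Sim1 had 67 counts in Q140 M1 at 2 months, and Otp 44 in Q20 M2 at 10 months. The summed panel level ran from 7.14 to 21.2 CPM at 10 months (median 10.7 CPM), with 13.6 CPM in Q80 M3 and 16.5 CPM in Q20 M3. Markers of the thalamus, which borders both regions, had a median sum of 38.9 CPM at 2 months, 38.3 CPM at 6 months and 182 CPM at 10 months. Over the 56 libraries of 10 months the r of Pmch was 0.15 with the thalamic sum, 0.33 with the summed hypothalamus panel and 0.53 with the summed pituitary panel. Over the 96 libraries of 6 months these values were 0.29, 0.31 and 0.51. Hcrt at 10 months had an r of 0.14, 0.17 and 0.45 with the same sums. The points share library and depth. The part of neighbouring tissue in these values was not tested.

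The genes most like Hcrt were Pmch, Rnf227 (0.33), Tango2 (0.31), Resp18 (0.3) and Nap1l5 (0.29). Those most like Pmch were Hcrt, Sparc (0.42), Lmx1a (0.41), Mab21l1 (0.4) and Agt (0.4). Lmx1a is a transcription factor of the roof plate and of midbrain neurons.

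The lines were then set against Q20 at each age, against their own wild types at 6 months, and females against males, with edgeR's quasi-likelihood test fitted to all genes of an age (Benjamini-Hochberg adjusted p under 0.05 for a call). The filter on low counts kept 4 of the 7 hormone genes at 2 months (not Gh, Prl and Hcrt), 6 at 6 months (not Hcrt) and 5 at 10 months (not Gh and Prl). Gh and Prl passed at 6 months through the libraries in which they were high together with others of lower counts. Such were 75 counts of Gh in Q175 M1 and 46 of Prl in Q111 F4. Both genes also stayed in the fit without all 19 libraries with a high hormone gene. Since the genes were chosen on these counts, their calls are listed and nothing is read from them.

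At 2 months 0 of 20 tests of hormone genes in the 5 lines passed (edgeR), with 7 at an unadjusted p under 0.05 and 0 calls by DESeq2. DESeq2 gave an adjusted p for 15 of these 20 tests. Over all genes the share called was 0.0118% for Q80, 0.0% for Q92, 0.0176% for Q111, 0.0% for Q140 and 0.218% for Q175. For Q92 and Q140 this was 0 of 17006 genes, with 1.27% and 4.6% of genes at an unadjusted p under 0.05 and 0 and 11 calls by DESeq2. Between females and males 0 of 4 hormone genes were called at 2 months and 0 of 5 at 10 months (edgeR), with 0 and 1 at an unadjusted p under 0.05 and 0 by DESeq2 at both ages. At 2 months DESeq2 gave an adjusted p for 3 of the 4. The share of all genes called between the sexes was 0.923% and 1.28%.

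At 6 months 5 of 30 tests against Q20 passed, all in Q140 and Q175. The share of all genes called was 0.289% for Q80, 5.99% for Q92, 12.8% for Q111, 27.9% for Q140 and 36.2% for Q175. Gh had 0 to 47 counts in Q140 (median 0) and 0 to 75 in Q175 (median 0), against 0 to 2971 in Q20 (median 0.5). The log2 fold changes were -5.69 (SE 1.62, adjusted p = 0.00451) in Q140 and -5.40 (SE 1.54, adjusted p = 0.00337) in Q175. Without Q20 M4, which held 98.6% of the Gh counts of its group, they were 0.26 and 0.60, with adjusted p of 0.945 and 0.85. Prl had 0 to 26 counts in Q140 (median 1.5) and 0 to 23 in Q175 (median 0.5), against 0 to 482 in Q20 (median 3.5). Its log2 fold changes were -4.95 in Q140 and -5.05 in Q175, and 0.16 and 0.10 without Q20 M4. Pmch had 5 to 323 counts in Q140 (median 9.5) and 2 to 18 in Q20 (median 9), with a log2 fold change of 2.28 (adjusted p = 0.0371) that was -0.04 without Q140 M2. Each of these calls was thus carried by 1 library.

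Against their own wild types at 6 months 3 of 36 tests passed. The share of all genes called was 0.0227% for Q20, 0.051% for Q80, 0.051% for Q92, 8.94% for Q111, 24.2% for Q140 and 31.8% for Q175. Pomc had 29 to 80 counts in Q92 (median 42), against 36 to 3061 in its wild types (median 50), and its log2 fold change of -3.05 (adjusted p = 0.00467) was -0.02 without the wild type M4. Prl had 0 to 929 counts in Q111 against 0 to 5 in its wild types, and the log2 fold change of 6.24 was 2.92 (adjusted p = 0.605) without Q111 F1. Prl had 0 to 26 counts in Q140 against 0 to 2179 in its wild types, and the log2 fold change of -5.09 was 1.27 without the wild type F2. At 6 months Prl was called higher in females than in males (2.45, SE 0.819, adjusted p = 0.026), with a mean of 2.13 ± 8.49 CPM in 48 females and 0.497 ± 2.19 CPM in 48 males (SD). The share of all genes called between the sexes was 18.5%. Without the wild type F2 housed with Q140 the value was 1.77 (adjusted p = 0.0935). Without all 19 libraries with a high hormone gene Prl was called (1.58, adjusted p = 0.0186), and Gh was called lower in females (-2.41, adjusted p = 0.00362).

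At 10 months 1 of 25 tests passed, for Avp in Q175. The share of all genes called was 0.122% for Q80, 1.12% for Q92, 12.5% for Q111, 22.5% for Q140 and 24.5% for Q175. Avp had 9 to 28 counts in Q175 (median 19), against 16 to 76 in Q20 (median 34.5). That was 0.541 ± 0.213 CPM in Q175 and 1.07 ± 0.542 CPM in Q20 (SD, n = 8 each), with 8 of 8 Q175 libraries below the Q20 mean but overlapping ranges. The log2 fold change was -1.11 (SE 0.401, adjusted p = 0.0357), and -0.94 (adjusted p = 0.0983) without Q20 M3. The group medians of the wild types and of Q80, Q92, Q111 and Q140 lay between 0.752 and 0.879 CPM, between those of Q175 (0.56 CPM) and Q20 (1.08 CPM). Oxt in Q175 was not called at 10 months (0.32, adjusted p = 0.754). Without Q175 F4 its log2 fold change against Q20 was -1.73 (adjusted p = 0.00648). Q20 then still held M2, with 77 counts or 44.8% of the Oxt counts of its group. The Q20 median of Oxt, 0.367 CPM, was the highest of the 7 groups of that age, against 0.235 CPM in Q175 and 0.166 CPM in the wild types.

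The receptors of these hormones were not used to choose the 7 genes, although their list was drawn up with earlier results of these data known. Of 14 receptor genes 9 passed the filter at 2 months and 10 at 6 and 10 months. Per length, Mchr1, the receptor of melanin-concentrating hormone, had the highest mean over all libraries (17.4 FPKM), followed by Ghr, the growth hormone receptor (4.22 FPKM), and Oxtr, the oxytocin receptor (0.602 FPKM). Mc2r, the corticotropin receptor of the adrenal, and Avpr1b, the vasopressin receptor of the pituitary, had means of 0.00679 and 0.00523 FPKM.

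Oxtr was higher in the lines with long repeats at 6 months. It had 2.51 to 3.84 CPM in Q111 libraries (median 3.01), 2.82 to 4.09 CPM in Q140 (median 3.18) and 3.30 to 5.09 CPM in Q175 (median 3.74), against 1.43 to 2.60 CPM in Q20 (median 2.35). Each Q140 and Q175 library lay above each Q20 library. The log2 fold changes against Q20 were 0.45 (SE 0.134, adjusted p = 0.015) in Q111, 0.53 (SE 0.134, adjusted p = 0.00131) in Q140 and 0.75 (SE 0.133, adjusted p = 2.79e-06) in Q175. Against their own wild types they were 0.60 in Q111 (adjusted p = 0.0012), 0.36 in Q140 (adjusted p = 0.0409) and 0.65 in Q175 (adjusted p = 3.79e-05). The call of Q140 against its wild types was lost without Q140 M4 (0.30, adjusted p = 0.107). Q80 and Q92 had 2.62 ± 0.471 and 2.35 ± 0.65 CPM, and neither passed. At 2 months Oxtr had a log2 fold change of 0.05 in Q175 (adjusted p = 0.921), and at 10 months 0.30 (SE 0.135, adjusted p = 0.0996), with 3.94 ± 0.891 CPM in Q175 and 3.01 ± 0.608 CPM in Q20. The wild types of 10 months, housed with Q20, had 2.10 ± 0.458 CPM (SD, n = 8), and no line was tested against them. The difference between ages was not tested.

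The summed medium spiny markers moved the other way, at 4020 to 4670 CPM in Q175 against 6990 to 8200 CPM in Q20 at 6 months, and their r with Oxtr over the 96 libraries of that age was -0.61. In bulk tissue fewer cells of a type and less RNA per cell cannot be told apart. The part of this in the Oxtr values was not tested.

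Of the 10 receptors tested in Q175 against Q20 at 6 months 1 rose and 3 fell, where 36.2% of all genes were called. The median log2 fold change of the 10 was 0.11, against 0.01 over all genes. Mc3r, a melanocortin receptor, was at 0.814 ± 0.203 CPM in Q175 and 1.06 ± 0.212 CPM in Q20 (log2 fold change -0.46, adjusted p = 0.0148), and in Q111 it was -0.47 (adjusted p = 0.0304). Mchr1 was at 38.2 ± 2.45 CPM in Q175 and 41.9 ± 3.21 CPM in Q20 (-0.20, adjusted p = 0.0359), and Ghr at 14.6 ± 1.17 and 15.2 ± 1.47 CPM (-0.14, adjusted p = 0.0426). The calls of Mchr1 and Ghr were lost without the filter on low counts (adjusted p of 0.0653 and 0.0743), and without 1 Q20 library each (F1 for Mchr1, 0.0658, and M1 for Ghr, 0.101). The call of Mc3r in Q111 was lost without Q20 M1 (0.0762). Against the wild types of Q175, where 31.8% of all genes were called, none of the 3 was. The log2 fold changes were -0.34 for Mc3r (adjusted p = 0.0851), -0.14 for Mchr1 (adjusted p = 0.186) and -0.08 for Ghr (adjusted p = 0.259). Mc3r in Q111 was at -0.13 against its wild types (adjusted p = 0.697), and Q20 had 1.06 ± 0.212 CPM of Mc3r against 0.827 ± 0.169 CPM in its own (0.36, adjusted p = 0.844). At 10 months Mchr1 was called (-0.22, adjusted p = 0.0447), with 29.5 ± 3.28 CPM in Q175 and 32.9 ± 3.79 CPM in Q20, but not without Q20 F5 (adjusted p = 0.0858). At that age 24.5% of all genes were called, and the median of the 10 receptors was -0.32. At 2 months, with 0.218% of all genes called in Q175, 0 of 9 receptors were (edgeR), with 0 at an unadjusted p under 0.05 and 0 by DESeq2.

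**Figure D5:**
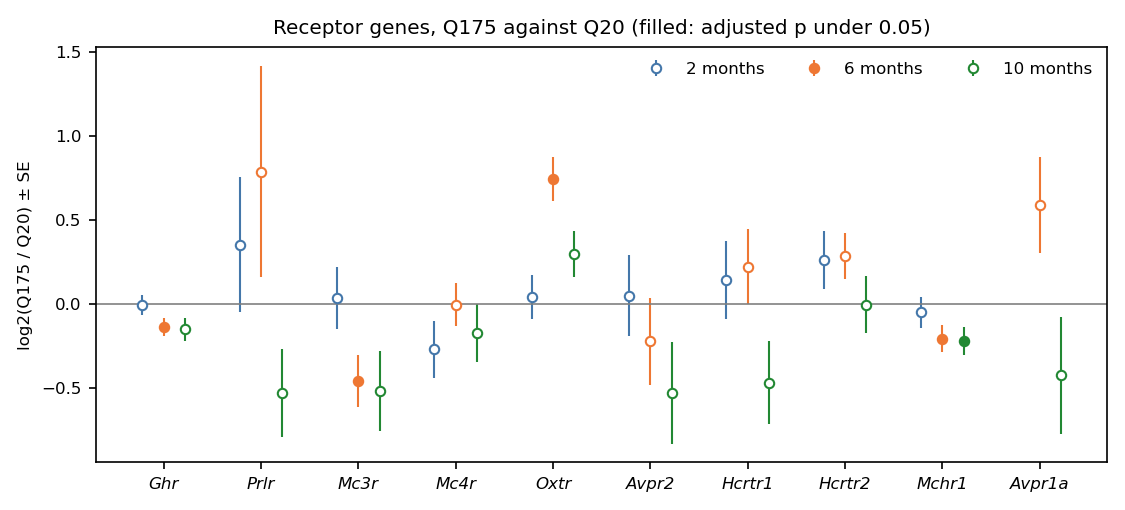
Log2 fold change of Q175 over Q20 with its SE for the receptor genes that passed the filter, from edgeR fits of 8 libraries per group at 2, 6 and 10 months; filled points have an adjusted p under 0.05. Oxtr at 6 months (0.75) stands highest among the called points, Mc3r (-0.46) lowest.

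Prlr, the prolactin receptor, is known from the choroid plexus, which lines the ventricle beside the striatum. It had 80.2 CPM in Q80 F3 and 67.0 CPM in the wild type M2 housed with Q80 at 6 months, against a group mean of 1.61 ± 0.326 CPM in Q20. The same libraries held the 2 highest sums of 7 choroid plexus markers, 5850 and 5860 CPM, where the median library of 6 months had 60.3 CPM. The r of Prlr with that sum was 0.84 over the 96 libraries of 6 months. Prlr was called in Q80 against Q20 (2.91, adjusted p = 0.00968), and its log2 fold change was 0.51 (SE 0.512, adjusted p = 0.979) without Q80 F3. Neither library was high for Prl, and the part of choroid plexus was not tested.

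The enzymes and granule proteins that process and package peptide hormones were abundant, led by Cpe, carboxypeptidase E, ahead of Scg5, the chaperone of Pcsk2, at a mean of 124 FPKM and Scg2, secretogranin 2, at 111 FPKM. In Q175 against Q20 at 6 months 3 of 9 rose and 3 fell, where 36.2% of all genes were called. Scg5 had 155 to 169 CPM in Q175 libraries (median 161), against 122 to 145 CPM in Q20 (median 134), with no overlap (0.20, SE 0.0302, adjusted p = 4.59e-08). Pcsk1n, an inhibitor of the convertase Pcsk1, was at 284 ± 84.6 CPM in Q175 and 185 ± 42.1 CPM in Q20 (0.55, adjusted p = 0.0151), and Pcsk1 itself at 9.90 ± 1.24 and 7.26 ± 1.38 CPM (0.38, adjusted p = 0.0197). The convertase Pcsk2 was at 306 ± 14.3 CPM in Q175 and 335 ± 20.6 CPM in Q20 (-0.20, adjusted p = 1.5e-05). Chgb, chromogranin B, had 160 to 175 CPM in Q175 (median 168), against 176 to 203 CPM in Q20 (median 193), again with no overlap (-0.25, adjusted p = 8.61e-06). Cpe had -0.07 (adjusted p = 0.0416), with means of 1700 CPM in both groups on raw totals. Against the wild types of Q175, where 31.8% of all genes were called, 4 of the 9 were. These were Scg5 (0.21), Pcsk1 (0.35), Pcsk2 (-0.19) and Chgb (-0.25). Pcsk1n was at 0.24 there (adjusted p = 0.355), with 228 ± 27.1 CPM in the wild types, and Cpe at -0.06 (adjusted p = 0.0671). At 10 months Scg5 rose (0.33) while Pcsk2 (-0.14) and Chgb (-0.20) fell, with 24.5% of all genes called. At 2 months, with 0.218% of all genes called, 0 of 9 were (edgeR), with 0 at an unadjusted p under 0.05 and 0 by DESeq2.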

How the data were processed

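Striatal polyadenylated RNA was extracted with the Qiagen miRNeasy kit and sequenced on HiSeq instruments, per the labels' protocols. CASAVA 1.8.2 is named per the submitters' processing notes, and which aligner and build were used is not given in the sources used here. Expected counts as deposited, the authors' estimated read counts per gene, were fractional (32.7% of values above 0) and were rounded. The deposited FPKM, scaled by the authors for depth and length, were used for levels between genes and in limma.

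Libraries were grouped by line, age and housing. Each age was fitted with edgeR 4.0.16 in R 4.3.3: filterByExpr (minimum count 10, minimum total 15), TMM factors, robust quasi-likelihood, a coefficient for each group, and sex added, with Benjamini-Hochberg adjustment within each test. CPM use raw library totals, and SEs are the log2 fold change over the square root of F. Nothing in the labels says outright that replicates are separate animals, so p-values measure only the spread between these libraries, which may be technical. The fit was tested on simulated data.

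The 7 genes and the receptor, processing, pituitary and hypothalamus lists were chosen with earlier results of these data known. Named are all 7 genes, the receptors and processing genes called in Q175 against Q20 at 6 months or with the 3 highest mean FPKM, and the 5 genes most like each hormone gene; Prlr, further calls of Oxtr and Mc3r, and Mc2r and Avpr1b were chosen after their values were seen. Alternatives were DESeq2 1.42.0, RLE factors, no filter, limma 3.58.1 on log2(FPKM + 1) and log2(FPKM + 0.1), the L code of the library name, a block on the replicate number, only the groups compared, and libraries left out. Promoters are RefSeq's. Figures were drawn with matplotlib 3.10.9.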

Additional observations from a re-analysis of the deposited data

Results flagged for a closer look

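In a group of 8 libraries a value was set apart when its gap to the nearest other value, as a share of the group's range of log2 CPM (prior count 1), exceeded Dixon's 95% critical value. This held 46 times in 182 combinations of a gene and a group. The genes were chosen for high counts in single libraries, so this number is a description and was not set against chance. Levels are in CPM of raw totals. Many are small, since a few reads stand apart where the other libraries have 0.

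Gh, growth hormone, stood apart in 16 libraries. At 2 months these were Q140 F4 (0.357 CPM), Q20 F4 (81.7 CPM), Q80 M5 (0.195 CPM) and Q92 F1 (0.157 CPM). At 6 months Gh had 1.27 CPM in Q140 M1, 1.75 in Q175 M1, 68.4 in Q20 M4, 1.16 in the wild type M1 housed with Q111, 0.0243 in the wild type F3 housed with Q20, 2.73 in the wild type F4 housed with Q80 and 21.6 in the wild type F2 housed with Q140. At 10 months it had 0.122 CPM in Q111 M1, 0.417 in Q140 M4, 0.0282 in Q20 F3, 0.183 in Q80 M1 and 0.0583 in Q92 M2.

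Prl, prolactin, stood apart in 7 libraries, with 0.969 CPM in Q140 F4 and 0.34 in Q175 F2 at 2 months, and 0.0293 in Q80 F3 at 10 months. At 6 months it had 10.4 CPM in Q92 F4, 4.73 in the wild type F4 housed with Q80, 54.6 in the wild type F2 housed with Q140 and 10.7 in the wild type M4 housed with Q92. Pomc also stood apart in 7 libraries, each time on the high side. It had 1.68 CPM in Q140 F4, 25.2 in Q20 F4 and 34.2 in wild type M1 at 2 months. At 6 months it had 5.11 CPM in Q111 F1, 12 in Q20 M4, 4.66 in the wild type F2 housed with Q140 and 88.9 in the wild type M4 housed with Q92.

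The hypothalamic genes stood apart in both directions. Oxt had 5.16 CPM in Q175 F4 at 10 months and 0 in Q111 M3 at 2 months. Avp had 4.93 CPM in Q111 M2 and 0.151 in wild type F2 at 10 months, and 0.0981 in the wild type F4 housed with Q140 at 6 months. Hcrt had 2.68 CPM in Q20 M3 at 10 months and 0.141 in Q92 M4 at 2 months. At 6 months Hcrt had 0.382 CPM in the wild type F1 housed with Q92, 0.243 in the wild type F1 housed with Q20, and 0 in Q20 F2 and in the wild type M4 housed with Q175. Pmch had 8.52 CPM in Q140 M2, 5.26 in the wild type F4 housed with Q175 and 2.03 in the wild type M1 housed with Q80 at 6 months, and 1.83 in Q92 M4 and 0 in Q175 M2 at 2 months. Causes were not tested.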

How the results depend on the processing

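Over the 3 ages 6 hormone gene calls against Q20 became 3 with DESeq2, which gave an adjusted p for 59 of 75 tests. They became 0 with limma on log2(FPKM + 1), 1 on log2(FPKM + 0.1), 1 with the L code as a covariate and 1 with only the groups compared. Without all 19 libraries with a high hormone gene there was 1 call, Oxt in Q175 at 10 months, which was not among the 6. The 6 calls became 7 without the libraries that stand apart (adding Prl in Q175 at 2 months). Without the library with the highest CPM of the gene at that age there were 9, where 4 calls of Pomc and 2 of Oxt were gained and those of Gh and Pmch lost. For Pomc the library left out was a wild type, and Q20 kept its own high library. That was F4 at 2 months (70.5% of the Pomc counts of its group) and M4 at 6 months (64.9%). Against own wild types 3 calls became 1 with DESeq2 (Gh in Q20, not among the 3), 0 with either limma fit and 0 with the L code. They became 1 with only the groups compared (Avp in Q111, not among the 3). Without the library with the highest CPM of the gene at that age 1 was left, and without all 19 libraries 0. Between the sexes 1 call became 0 with limma on log2(FPKM + 1), 0 without the top library and 2 without all 19 libraries (Prl and Gh). Of receptors in Q175, 4 calls at 6 months became 2 without a filter and 0 with either limma fit, which tested 2 receptors. The 1 call at 10 months became 0 without a filter, with either limma fit and with only the groups compared. RLE factors left all 10 calls of hormone genes past the threshold. Other causes than the samples and genes left out were not tested.

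Reversed directions came with libraries left out. At 6 months the log2 fold change of Gh against Q20 became 0.26 in Q140 and 0.60 in Q175 without Q20 M4, and 0.45 and 0.33 without all 19 libraries. For Prl it became 0.16 and 0.10 without Q20 M4, and 0.18 and 0.00 without all 19. Pmch in Q140 became -0.04 without Q140 M2. Prl in Q140 against own wild types became 1.27 without the wild type F2 and 1.24 without all 19. Cpe in Q175 was at 0.00 in both limma fits, with no library left out. Leaving out the 19 libraries, or the top library of the groups compared, was chosen after seeing the data.

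With the replicate number as a block 1 call against Q20 was left in place of 6, and 2 of 3 against own wild types. The labels give only a shared number, and the mean correlation of same-numbered libraries' deviations lay between -0.0429 and 0.115, so they were not taken as pairs. As a hint from the data, 50 of 96 libraries at 6 months correlated best with their own number, where each group of 8 libraries held as many numbers. At 2 months 1 of 56 did, and at 10 months 9 of 56. No chance level was worked out. The main fits take no account of the replicate number, and what it stands for was not tested. High pairs numbered 32, and 43 at 5 times the median, 25 at 20 times, 42 at 50 counts and 32 with FPKM. Counts of 0 to 3, as for Gh, Prl and Hcrt in most libraries, are at the limit of this depth.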
